A study of Saccharomyces cerevisiae W303 with 30 samples.

Results

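The core histone and histone variant genes of Saccharomyces cerevisiae were followed in nascent RNA, as 10 of the 6692 genes in the count tables. They were chosen by systematic name: HTA1 (YDR225W) and HTA2 (YBL003C) for H2A, HTB1 (YDR224C) and HTB2 (YBL002W) for H2B, HHT1 (YBR010W) and HHT2 (YNL031C) for H3, HHF1 (YBR009C) and HHF2 (YNL030W) for H4, HTZ1 (YOL012C) for the variant H2A.Z, and HHO1 (YPL127C) for the linker histone H1. All 10 passed the filter on low counts in each fit of the sense counts. The first 8 are called core histone genes below.

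Core histones form the octamer around which DNA is wrapped in the nucleosome. In budding yeast their genes lie in divergent pairs, each pair transcribed from a shared intergenic region, and they are transcribed around the start of S phase. Spt10 binds the histone upstream activating sequences (UASs), SBF and MBF are the transcription factors of the G1/S program, and the HIR complex with Asf1 and Rtt106 represses all of the pairs but HTA2-HTB2 outside S phase. H2A.Z is placed by the SWR1 complex in the nucleosomes flanking promoters. Mediator carries signals from UAS-bound activators to RNA polymerase II. Med15 is an activator-binding subunit of its tail, Med16 joins the tail to the core of the complex, and Mot1 is an ATPase that removes TBP from DNA.

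The study asked how separating the Mediator tail from the core, with or without further loss of Med15 or Mot1, changes transcription. All strains were W303 MATa with marker mutations in ADE2, CAN1, HIS3, LEU2, TRP1 and URA3, each represented by a single strain isolate, grown in YPD at 30C with RNA labeled with 4-thiouracil (4tU) for 6 min, and each group held 3 replicate libraries. The untreated groups were WT and med16Δ (med16Δ::LEU2, also lys2). The degron groups expressed OsTIR1 from the GPD1 promoter (leu2::pGPD1-OsTIR1-LEU2), so that the plant hormone analog 3-IAA triggers destruction of proteins tagged with IAA7. Med16-AID carried Med16-3xV5-IAA7, Med15-AID carried Med15-3xHA-IAA7, Med15/Med16-AID carried both, and Mot1/Med16-AID carried Med16-3xV5-IAA7 with Mot1-3xHA-IAA7. Each received 0.5 mM 3-IAA or the vehicle DMSO for 30 min. WT and med16Δ lack OsTIR1 and saw no DMSO, and no strain without a degron tag received 3-IAA, so an effect of 3-IAA itself cannot be told apart from depletion.

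The 30 libraries held 3838508 to 6912702 sense counts on genes. Their identifiers name 2 library sets: 12 libraries of WT, med16Δ and Med16-AID, and 18 of the other strains. The deleted gene MED16 had 9 to 22 counts in the med16Δ libraries against 783 to 967 in WT. Degrons act on protein, so the transcripts of MED16, MED15 and MOT1 do not check the depletions. MOT1 had 710.8 to 801.9 CPM in Mot1/Med16-AID with DMSO against 165.7 to 180.9 CPM in Med15/Med16-AID with DMSO (log2 difference 2.11, SE 0.08, edgeR adjusted p = 6.2e-16). Its level was 302.6 to 342.8 CPM in WT and, with DMSO, 305.9 to 328.1 CPM in Med15-AID and 147.4 to 190.4 CPM in Med16-AID. With 3-IAA it changed by 0.65 (SE 0.07, edgeR adjusted p = 1.24e-07) in Mot1/Med16-AID and by -0.55 (SE 0.11, edgeR adjusted p = 0.00425) in Med16-AID. It also fell in Med15-AID (-0.38, SE 0.08, edgeR adjusted p = 8.08e-04) and Med15/Med16-AID (-0.33, SE 0.08, edgeR adjusted p = 0.005). Levels are given as CPM, the counts scaled to a common library total with TMM factors, which place the bulk of genes at no change. The S. pombe spike-in was not used here, so a shift shared by all genes is not seen. The 8 core histone genes together took 0.255 to 0.727% of the counts on genes.

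The 4 divergent pairs lie on chromosomes IV, II and XIV of the R64 (sacCer3) assembly, and each member is a single exon. HTB1 (chrIV:914317-914712) and HTA1 (chrIV:915530-915928) flank 817 bases, HTA2 (chrII:235394-235792) and HTB2 (chrII:236492-236887) flank 699, HHF1 (chrII:255373-255684) and HHT1 (chrII:256331-256741) flank 646, and HHT2 (chrXIV:575640-576050) and HHF2 (chrXIV:576727-577038) flank 676. HTZ1 (chrXV:303579-303983) and HHO1 (chrXVI:308828-309604) stand apart from any other histone gene.

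The coding sequences of the paralogs are close enough to bear on read assignment. HHT1 and HHT2 encode identical H3 and differ at 28 of 411 coding bases, and HHF1 and HHF2 encode identical H4 and differ at 8 of 312. The H2A copies differ at 25 of 399 bases and 2 residues, and the H2B copies at 48 of 396 bases and 4 residues. H2A.Z shares 63.0% of 127 aligned residues with the H2A of HTA1. Reads were 38 or 75 cycles from each end, and reads with several map positions are not counted. Of all 38-base windows, 68.4% were unique in the genome for HHF1 and HHF2, 80.7% for HHT1 and HHT2 and 91.2% for HTA1 and HTA2, and every window of HTB1, HTB2, HTZ1 and HHO1 was. Of 75-base windows, 97.5% were unique for HHF1 and HHF2 and every one for the rest. Where reads were short, levels of the H4 and H3 copies are thus lower bounds.

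The stretches of reference sequence that hold the UAS letters of each pair are shown because the results turn on how the pairs, and the copies on either side of each, responded. Strains were W303 and the sequence is the S288C reference from RefSeq. Each line runs along the plus strand, and capitals mark matches to GNGAANNNNNNNGAAC, searched on both strands. They lie at chrIV:914947-915138, chrII:236074-236194, chrII:255934-256101 and chrXIV:576336-576457.
HTB1-HTA1: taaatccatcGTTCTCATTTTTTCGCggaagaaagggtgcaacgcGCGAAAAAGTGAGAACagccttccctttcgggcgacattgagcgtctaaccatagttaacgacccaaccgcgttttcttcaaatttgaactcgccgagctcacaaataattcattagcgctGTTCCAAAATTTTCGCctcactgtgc
HTA2-HTB2: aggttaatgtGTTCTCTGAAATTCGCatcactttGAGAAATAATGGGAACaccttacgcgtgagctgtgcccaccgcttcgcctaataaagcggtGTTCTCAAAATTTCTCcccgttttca
HHF1-HHT1: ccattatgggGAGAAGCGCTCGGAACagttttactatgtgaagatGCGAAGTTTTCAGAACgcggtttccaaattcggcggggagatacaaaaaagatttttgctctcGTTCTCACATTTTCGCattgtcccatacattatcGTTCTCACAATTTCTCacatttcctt
HHT2-HHF2: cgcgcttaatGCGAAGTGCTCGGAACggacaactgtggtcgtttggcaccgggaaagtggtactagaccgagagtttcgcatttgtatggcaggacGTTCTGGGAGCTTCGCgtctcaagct

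These UAS letters occurred 3 times between HTB1 and HTA1, 3 times between HTA2 and HTB2, 4 times between HHF1 and HHT1 and 2 times between HHT2 and HHF2. In the 500 bases before the start codon they were found for all 8 core histone genes and for neither HTZ1 nor HHO1. Of the 6000 windows of that length before a protein-coding gene, 131 (2.18%) held at least 1 match. The 7 windows with 2 or more matches were all before core histone genes, and of those genes HTA1 alone had 1. The windows of a divergent pair share 1 region, so the same matches can count for both genes. These letters are those of the histone UAS and were searched after the shorter form. Finding them before core histone genes is thus a description and not a test. The shorter form GCGAAAAA, which is found within 2 of these matches in the HTB1-HTA1 region, occurred before 2 of the 10 members and before 5.77% of all genes.

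Other promoter letters were less shared. TATAAA was found within 500 bases of 5 members (HTA1, HTB1, HHT1, HHF1 and HHT2) and of 60.5% of all genes. The MBF letters ACGCGT lay between HTA2 and HTB2, within the windows of both, and before 5.42% of all genes. The SBF letters CNCGAAA lay before HTB1, HHT2, HHF2, HTZ1 and HHO1, and before 22.0% of all genes. In the HTB1-HTA1 region 2 of the 3 SBF matches overlap UAS matches. A match is a run of letters, and binding was not measured here.

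**Figure D1:**
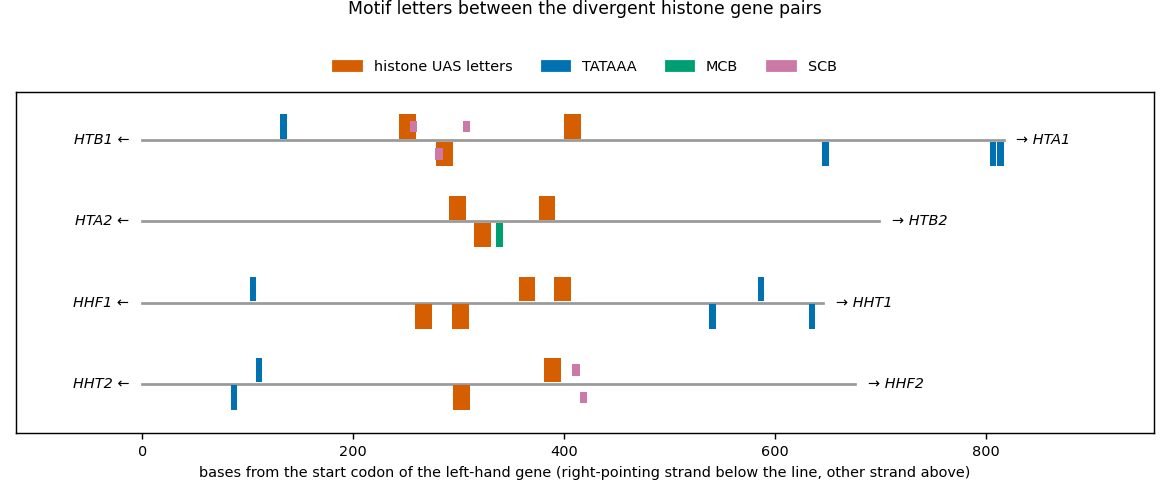
Map of the 4 intergenic regions, drawn in bases from the start codon of the gene at left, with matches on the strand read to the right below each line and those on the other strand above it. The UAS letters (orange) occur 3, 3, 4 and 2 times from top to bottom, the SBF letters (SCB) are in the first and last regions, and the MBF letters (MCB) are only between HTA2 and HTB2.

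In WT the H3 and H4 genes of the HHT2-HHF2 pair had the highest nascent RNA per coding length. Per kilobase of coding sequence, HHT2 stood at 1719 ± 192 CPM (SD, n = 3) and HHF2 at 1546 ± 149 (SD, n = 3), with overlapping ranges. HHT1 followed at 1155 ± 85.4 (SD, n = 3), below every HHF2 library. HTA1, HTB1 and HHF1 had means of 993.5, 978 and 930.1 CPM per kilobase, and from HHT1 down to HTB2, at 826.5, each neighbour overlapped the next. HTA2 was the lowest core gene at 500.8 ± 62.6 CPM per kilobase (SD, n = 3), below all HTB2 libraries. The variant genes lay lower, HTZ1 at 190.5 ± 13.1 and HHO1 at 68.6 ± 1.20 CPM per kilobase (SD, n = 3 each). Coding lengths stand in for transcript lengths here, since the annotation used gives no other.

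**Figure D2:**
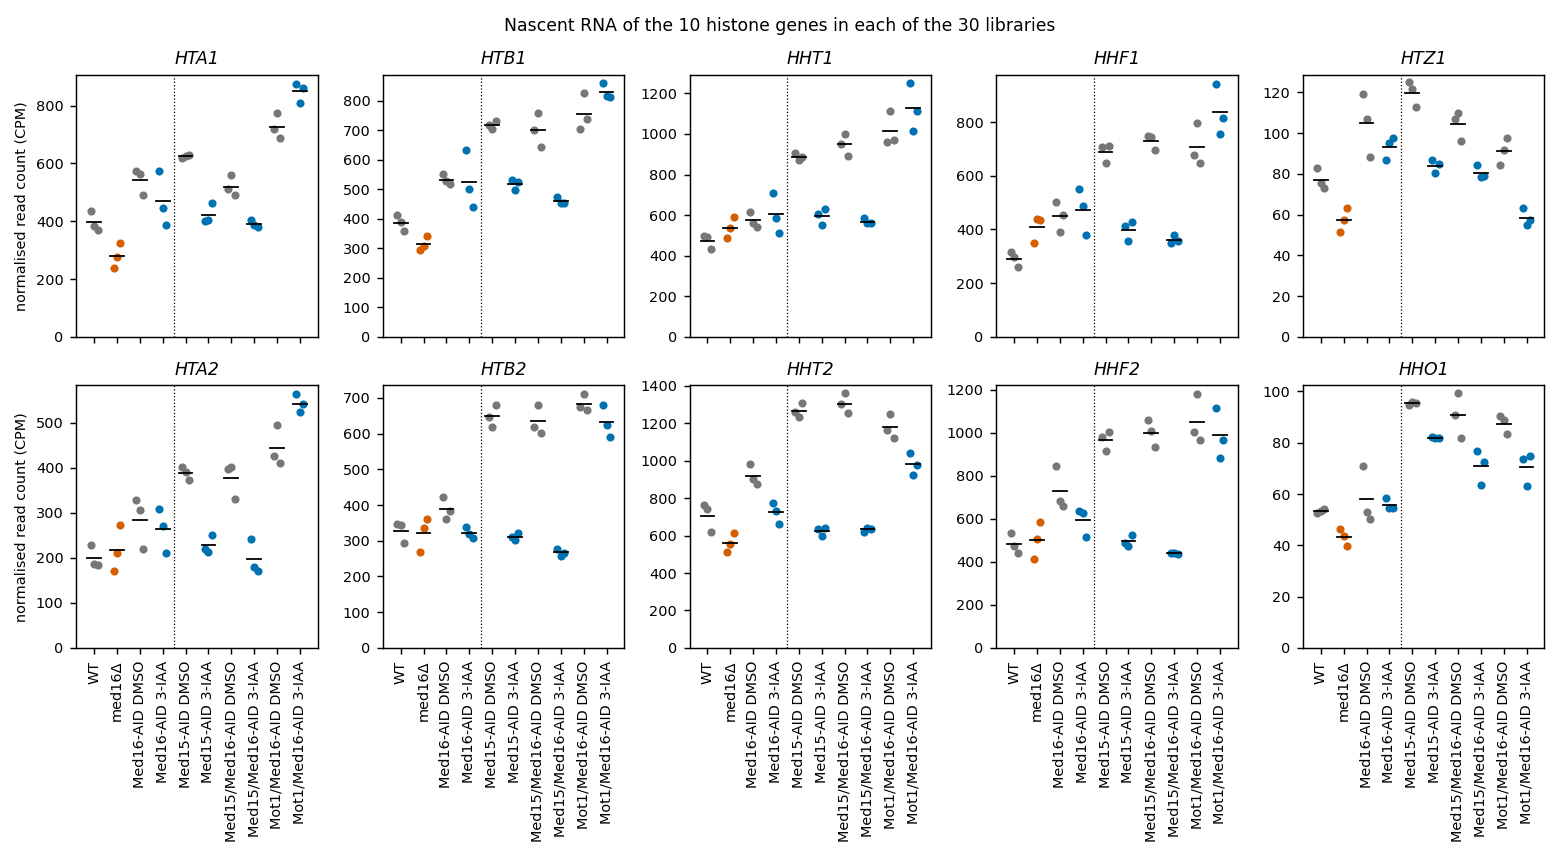
Normalised read count (CPM) of each gene in all 30 libraries, with a point for each library and a line for the mean of 3; grey, DMSO or WT; orange, med16Δ; blue, 3-IAA; the dotted line parts the 2 library sets. In Med15-AID and Med15/Med16-AID all 3-IAA points of all 10 genes lie below the DMSO points.

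Depletion of Med15 lowered all 8 core histone genes and HTZ1. The summed core level fell from 6006, 6236 and 6318 CPM in the DMSO libraries of Med15-AID to 3397, 3601 and 3782 CPM with 3-IAA. Fewer cells in S phase and less histone RNA per S-phase cell cannot be told apart in bulk samples. In total, 9 of the 10 members were called lower (edgeR quasi-likelihood test, Benjamini-Hochberg adjusted p under 0.05), where 9.68% of the 5803 genes tested were called lower, and none was called higher. Every 3-IAA library lay below every DMSO library for all 10 members, as for 16.4% of all genes. The median log2 fold change of the core genes was -0.77, beside 0.01 over all genes tested, and stood at -0.77, -0.89 and -0.65 in the 3 treated libraries against the mean of the controls.

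Among the H2A and H2B genes the second copies fell further in value. HTB2 stood at 619, 645.9 and 679.3 CPM with DMSO and at 300.7, 309.4 and 322.3 CPM with 3-IAA, a log2 change of -1.05 (SE 0.06, edgeR adjusted p = 1.75e-12). Each treated library of HTB2 was thus below every control by a wide margin. Its paralog HTB1 fell by a smaller value, from 705.2 to 731.2 CPM down to 499.2 to 531.5 CPM, by 0.46 on the log2 scale (SE 0.06, edgeR adjusted p = 6.25e-06). HTA2 went from 373, 391.2 and 402.3 CPM to 213.6, 219.8 and 250.5 CPM, with a log2 change of -0.76 (SE 0.10), and HTA1 changed by -0.55 (SE 0.07) with both groups apart. The intergenic region of HTA2 and HTB2 holds 3 UAS matches, as does that of HTB1 and HTA1, whose falls were smaller. The changes of HTA2 and HTB2, -0.76 and -1.05, were not tested against each other.

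Among the H3 and H4 genes, those of HHT2-HHF2 fell by the larger values. HHT2 had 1231, 1259 and 1306 CPM with DMSO and 595.5, 633.5 and 638.4 CPM with 3-IAA, a log2 change of -1.01 (SE 0.06, edgeR adjusted p = 1.57e-12). HHF2 went from 914.5, 979.2 and 1003 CPM to 475.2, 488.3 and 525.5 CPM, a change of -0.95 (SE 0.08). The groups are separate for both genes by a wide gap. HHF1 changed by -0.78 (SE 0.08) and HHT1, the copy with the smallest response among these, by -0.57 (SE 0.07), from 872.1 to 908.3 CPM down to 549.7 to 629.1 CPM.

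HTZ1 fell with the core genes, and HHO1 did not pass the test. HTZ1 had 112.9, 121.8 and 125.1 CPM with DMSO and 80.4, 84.9 and 86.7 CPM with 3-IAA, a log2 change of -0.50 (SE 0.07, edgeR adjusted p = 7.65e-06). HHO1 had 94.6, 95.6 and 95.8 CPM with DMSO and 81.7, 81.7 and 82.0 CPM with 3-IAA. These libraries did not overlap, yet the change of -0.21 (SE 0.08) missed the threshold (edgeR adjusted p = 0.0797), and with only these 2 groups in the fit it passed (adjusted p = 0.0152, the lowest of the alternatives, which reached 0.746). CSE4, the centromeric H3 variant outside the 10 members, was at 67.6 ± 1.33 CPM with DMSO and 63.8 ± 3.22 CPM with 3-IAA (SD, n = 3 each; edgeR adjusted p = 0.705).

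Losing Med15 and Med16 together lowered all 10 members. Here 8.05% of 5803 genes were called lower, and the 3-IAA libraries lay below the DMSO libraries for 10 of 10 members and for 13.5% of all genes. The summed core level went from 5838, 6286 and 6513 CPM to 3262, 3299 and 3390 CPM. The core median log2 fold change was -0.97, with values from -1.24 for HTB2 to -0.41 for HTA1, and -0.88, -0.98 and -1.03 in the 3 treated libraries.

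HTB2 was again the most lowered in value. It had 602.6, 619.1 and 679.6 CPM with DMSO and 258.6, 266.4 and 277.9 CPM with 3-IAA (log2 change -1.24, SE 0.06, edgeR adjusted p = 1.99e-13). HHF2 followed at 931.6, 1010 and 1058 CPM against 437.8, 439.5 and 441.2 CPM, a change of -1.19 (SE 0.08, edgeR adjusted p = 3.24e-11). The 3-IAA libraries of HHF2 lay close together and far below its controls. HHT2, HHF1 and HTA2 changed by -1.05 (SE 0.06), -1.01 (SE 0.08) and -0.92 (SE 0.10).

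The remaining members fell by less. HHT1 changed by -0.74 (SE 0.07) and HTB1 by -0.61 (SE 0.06). HTA1 had 489.4, 511 and 559.2 CPM with DMSO and 380.3, 387.2 and 403.4 CPM with 3-IAA, a log2 change of -0.41 (SE 0.07, edgeR adjusted p = 3.84e-05). HTZ1 changed by -0.37 (SE 0.07, edgeR adjusted p = 5.15e-04) and HHO1 by -0.34 (SE 0.08, edgeR adjusted p = 0.00339), and neither group overlapped its controls.

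**Figure D3:**
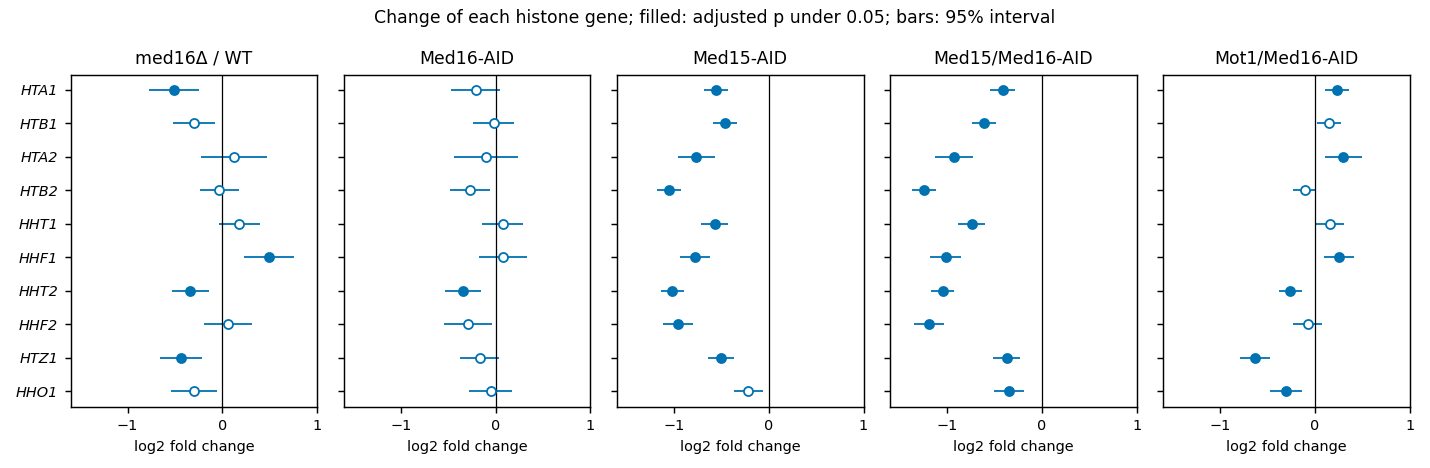
Log2 fold change of each gene in the 5 comparisons, with 95% intervals as bars (normal approximation from the standard error); filled points have an edgeR adjusted p under 0.05. All 10 genes are lower in Med15/Med16-AID and 9 are called lower in Med15-AID, while in med16Δ and Mot1/Med16-AID called genes lie on both sides of 0.

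Depletion of Med16 alone gave a single call. In Med16-AID 1 of 10 members was called lower, where 6.99% of 5710 genes were, and none higher. That gene was HHT2, with 875.7, 902.4 and 979.6 CPM in DMSO and 664.1, 731.9 and 773.6 CPM in 3-IAA libraries, a log2 change of -0.34 (SE 0.10, edgeR adjusted p = 0.0342). The groups did not overlap, but its call was lost when Med16-AID 3-IAA replicate 1, 2 or 3 or DMSO replicate 1 or 2 was left out (adjusted p up to 0.127), and when libraries were scaled by their totals only. HHF2 and HTB2 had the next lowest values, -0.29 (SE 0.13) and -0.27 (SE 0.11), with adjusted p = 0.156 and 0.113 (edgeR). Their groups did not overlap either.

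The replicates of Med16-AID differed among themselves. Against the mean of the DMSO libraries, the median core gene stood at 0.12, -0.14 and -0.37 on the log2 scale in 3-IAA replicates 1, 2 and 3. Replicates 1, 2 and 3 thus held 3, 6 and 8 core genes below the control mean, and the summed core level of the 3-IAA libraries, 3420 to 4527 CPM, overlapped that of the DMSO libraries, 4145 to 4817 CPM. HTA1 (-0.21), HTA2 (-0.10), HTB1 (-0.02), HHT1 (0.08) and HHF1 (0.08) did not pass the test, nor did HTZ1 (-0.17, SE 0.10) and HHO1 (-0.05, SE 0.12).

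Cells without MED16 showed changes in both directions. In med16Δ 3 members were called lower than in WT and 1 higher, where 9.53% and 7.97% of 5710 genes were. HTA1 had 369.8, 384.4 and 434.9 CPM in WT and 237.6, 275.2 and 324.9 CPM in med16Δ, without overlap (log2 change -0.51, SE 0.14, edgeR adjusted p = 0.0139). HHF1 rose from 258.8, 295.9 and 315.9 CPM to 351.4, 435 and 439.6 CPM, a change of 0.49 (SE 0.13, edgeR adjusted p = 0.0147), again without overlap. HHT2 changed by -0.34 (SE 0.10, edgeR adjusted p = 0.0249) and HTZ1 by -0.44 (SE 0.11, edgeR adjusted p = 0.0127).

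None of these 4 calls held in every fit that left out a library. The call of HTA1 was lost without WT replicate 1 or med16Δ replicate 1 or 2 (edgeR adjusted p up to 0.0764). That of HHF1 was lost without WT replicate 3 or med16Δ replicate 2 (up to 0.0832), that of HHT2 without WT replicate 1 or 2 or med16Δ replicate 1 or 2 (up to 0.129), and that of HTZ1 without WT replicate 1 or med16Δ replicate 1 (up to 0.07). With library totals only, HTA1, HHT2 and HTZ1 missed the threshold as well. The core median in the 3 med16Δ libraries was -0.26, 0.06 and 0.22 against the WT mean. HTZ1, at 51.7 to 63.2 CPM in med16Δ and 72.9 to 83.1 CPM in WT, did not overlap between the groups. Nor did HTB1 or HHO1, which were not called. The share of all genes whose groups did not overlap is not given for this comparison. The members that did not pass the test were HTB1 (-0.30), HHO1 (-0.30), HTB2 (-0.03), HHF2 (0.06), HTA2 (0.12) and HHT1 (0.18).

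In Mot1/Med16-AID members were called in both directions, at shares near those of all genes. Of the 10 members 3 were called higher, all core genes, and 3 lower, where 21.7% and 23.1% of 5803 genes were. HTA1 rose from 687.8, 719.1 and 774.3 CPM to 810.1, 861.8 and 875.8 CPM, a log2 change of 0.23 (SE 0.06, edgeR adjusted p = 0.00496). HTA2 changed by 0.30 (SE 0.10, edgeR adjusted p = 0.0150) and HHF1 by 0.25 (SE 0.08, edgeR adjusted p = 0.0143). The HTA1 and HTA2 libraries of the groups did not overlap, whereas HHF1 with 3-IAA reached down to 756.7 CPM, below the highest DMSO library at 796.3 CPM.

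The members that fell included both variant genes. HTZ1 had 84.5, 91.8 and 97.4 CPM with DMSO and 55.1, 57.2 and 63.2 CPM with 3-IAA, a log2 change of -0.63 (SE 0.08, edgeR adjusted p = 7.48e-07), its largest fall in the 5 comparisons by value. HHO1 changed by -0.31 (SE 0.08, edgeR adjusted p = 0.00461), with 83.4 to 90.2 CPM against 62.9 to 74.7 CPM. HHT2 was the core gene that fell, from 1122, 1165 and 1251 CPM to 923.9, 975.2 and 1040 CPM (log2 change -0.26, SE 0.06, edgeR adjusted p = 0.00119). HTB1 (0.15), HHT1 (0.16), HTB2 (-0.11) and HHF2 (-0.08) did not pass the test.

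The 3 rises depended on the fit, and the falls of HTZ1 and HHT2 passed in every alternative. All 3 rises missed the threshold with all 30 libraries in one fit, with edgeR adjusted p = 0.0837 for HTA1 and 0.112 for HTA2. The calls of HTA2 and HHF1 were also lost without DMSO replicate 1 or 3, and that of HHF1 without 3-IAA replicate 1 (edgeR adjusted p up to 0.0786 and 0.118). HHO1 missed it with the unstranded counts (edgeR adjusted p = 0.0564).

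Differences between strains were tested as differences of their log2 fold changes. From Med15/Med16-AID to Mot1/Med16-AID the change of all 8 core genes was more positive, by 0.65 (HTA1) to 1.27 (HHF1), with edgeR adjusted p from 4.34e-09 to 1.15e-05, where 14.6% of 5803 genes were called in that direction. HTZ1 (-0.26, SE 0.11) and HHO1 (0.04, SE 0.12) were not called, with adjusted p = 0.0688 and 0.839 (edgeR). The depletions share Med16 and differ in Med15 and Mot1.

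Adding Med16 depletion to that of Med15 made no difference that passed the test for any member. Called genes were 0.396% of 5803 in either direction, and 0 of 10 members. The difference was negative in value for 7 of the 8 core genes. Their median was -0.17, with 8.53% of all genes below it, and was not tested as a set. The largest differences by value were those of HHF1 (-0.24, 95% interval -0.47 to -0.01) and HHF2 (-0.24, 95% interval -0.46 to -0.01). Both intervals are normal approximations from the standard error. That of HHF1 leaves out 0, while its edgeR test gave an unadjusted p of 0.0534. HTB2 (-0.19) and HHF2 had an unadjusted p under 0.05, as did 285 of the 5803 genes, and DESeq2 also called 0 members. These intervals are not adjusted for the number of genes and include falls larger than the values given.

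Across the 2 library sets, the responses to Med15 and Med16 depletion differed. Strain and library set cannot be told apart in these contrasts, though each response is measured within its set. The starting levels differed. Summed core levels with DMSO were 4145 to 4817 CPM in Med16-AID and 6006 to 6318 CPM in Med15-AID. With 3-IAA they were 3420 to 4527 CPM and 3397 to 3782 CPM, which overlap. In Med15/Med16-AID they were 5838 to 6513 CPM with DMSO and 3262 to 3390 CPM with 3-IAA. The fall in Med15-AID was larger than in Med16-AID for 6 core genes, by 0.45 (HTB1) to 0.86 (HHF1) on the log2 scale, where 3.71% of 5844 genes were called in that direction. The call of HTB1 was lost in 11 of 20 alternatives, 9 of which each left out 1 library of Med16-AID (3-IAA replicate 1, DMSO replicate 2 or 3) or any library of Med15-AID (adjusted p up to 0.168). HTA2 (adjusted p = 0.0652) and HTA1 (adjusted p = 0.22) were not called by edgeR. In Med15/Med16-AID the fall was larger than in Med16-AID for 7 core genes, with 3.66% of genes called lower, and HTA1 was the exception among the core genes at -0.20 (SE 0.15). The call of HTA2 there was lost without Med16-AID 3-IAA replicate 1 or DMSO replicate 3, or Med15/Med16-AID 3-IAA replicate 2 or 3 (adjusted p up to 0.0741).

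Fewer members separated the remaining strain pairs. HTA1 (0.44, SE 0.15, edgeR adjusted p = 0.0253) and HTZ1 (-0.47, SE 0.13, edgeR adjusted p = 0.0067) differed between Mot1/Med16-AID and Med16-AID, where 29.3% of genes were called in either direction. The call of HTA1 there was lost without Med16-AID 3-IAA replicate 3 or Mot1/Med16-AID DMSO replicate 3 (edgeR adjusted p up to 0.0949). Between med16Δ and Med16-AID 0 of 10 members differed, beside 6.67% of 5710 genes, and DESeq2 also called 0. HHF1 alone had an unadjusted p under 0.05 there, with a difference of 0.41 (SE 0.19, edgeR adjusted p = 0.223).

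The vehicle-treated strains did not start from the same levels. In Med16-AID with DMSO 8 members were higher than in WT, where 26% of 5710 genes were, by 0.28 (HHT1) to 0.63 (HHF1), a contrast in which the degron background and DMSO cannot be told apart. HHF1 had 391.4, 453 and 501 CPM there, above all WT libraries. The call of HHT1 (edgeR adjusted p = 0.0484) was lost in 9 of 15 alternatives, and HTA2 lost its call without DMSO replicate 1 or 2 or WT replicate 2 or 3 (adjusted p up to 0.0899). In the same contrast 23.2% of genes were called lower, among them 7 of 17 G1/S markers, with RNR1 at -1.13 (SE 0.09), 8 of 10 G2/M markers (median -0.52 over the 10) and 7 of 10 M/G1 markers (median -0.59), while 1 M/G1 marker was higher. Their part in the result was not tested.

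Among the DMSO groups of the second set, HTA1 (-0.25) and HTZ1 (-0.19) were lower in Med15/Med16-AID than in Med15-AID with DMSO, beside 20.2% of genes. HTA1 was higher (0.46), and HHT2 (-0.17) and HTZ1 (-0.21) were lower, in Mot1/Med16-AID than in Med15/Med16-AID with DMSO, where 50% of genes differed in either direction. The calls of HTA1 in both contrasts passed in every alternative. That of HTZ1 was lost in the first contrast without Med15/Med16-AID replicate 3 or Med15-AID replicate 1 or 2 (adjusted p up to 0.191), and in the second without Med15/Med16-AID replicate 1 or 2 or Mot1/Med16-AID replicate 1 (up to 0.109). That of HHT2 was lost without Med15/Med16-AID replicate 2 or Mot1/Med16-AID replicate 1 or 3 (up to 0.107). With the unstranded counts or all 30 libraries in one fit, HTZ1 was not called in either contrast. Library totals only also removed its call in the first. HHT2 was not called with all 30 libraries in one fit or with only the groups compared.

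Within the paralog pairs the shares of the copies differed in value. HHT1 made up 41.3% of the H3 counts in Med15-AID with DMSO (range 40.4 to 41.9%) and 48.8% with 3-IAA (48 to 49.6%). The share of HHT1 was higher in the depleted or deleted group in 5 of 5 comparisons, by 5.23 to 8.74 percentage points, and that of HHF1 among H4 counts in 5 of 5, by 2.93 to 7.41 points. The HHT1-HHF1 pair thus took a greater part of the H3 and H4 counts, also in Med15-AID and Med15/Med16-AID, where both its genes fell.

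The H2A and H2B pairs were less uniform. HTB1 took 52.6% of H2B counts in Med15-AID with DMSO and 62.5% with 3-IAA, and 52.5% against 63.2% in Med15/Med16-AID. In med16Δ its share was 49.7% against 54.2% in WT. The share of HTA1 among H2A counts was 66.6% with 3-IAA and 58% with DMSO in Med15/Med16-AID, and 56.4% in med16Δ against 66.5% in WT. Of the 20 tests, 17 were at p = 0.1, the smallest two-sided p that an exact permutation test of 3 against 3 libraries allows (adjusted p = 0.118), so no share could pass 0.05.

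**Figure D4:**
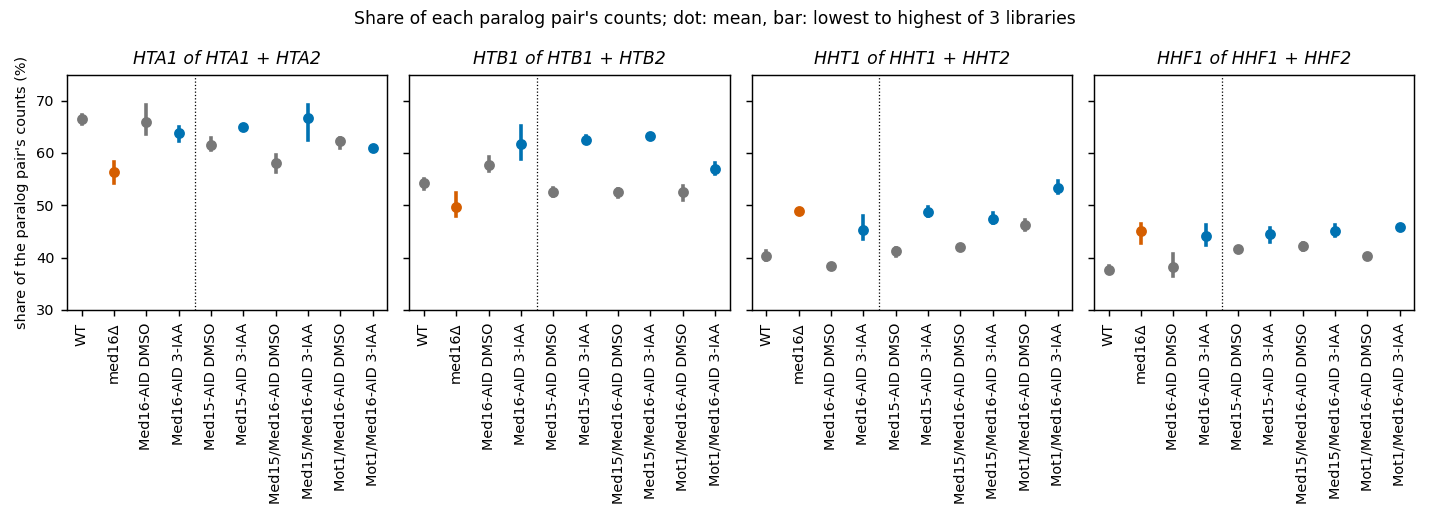
Share of each paralog pair's counts (%) taken by the copy named, with the mean as a dot and the lowest to highest of 3 libraries as a bar; grey, DMSO or WT; orange, med16Δ; blue, 3-IAA; the axis starts at 30%. HHT1 and HHF1 shares are higher in each depleted or deleted group than in its control.

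The genes that regulate or handle histones were counted beside all genes. None of 13 histone gene regulators was called by edgeR in med16Δ, Med16-AID, Med15-AID or Med15/Med16-AID. In that order 544, 399, 562 and 467 of all genes were called lower, and 455, 233, 232 and 232 higher. These were of 5710 genes tested in the first library set and 5803 in the second. At such shares a list of 13 would hold few calls. They were SPT10, SPT21, the HIR genes, ASF1, the SBF and MBF subunits and others. A second list, of 11 genes for histone chaperones and other histone-handling factors such as PSH1, gave no call there either. At an unadjusted p under 0.05 in edgeR there were 2, 3, 3 and 2 regulators in those comparisons, beside 1627, 1481, 1344 and 1312 of all genes. The second list had 1, 2, 3 and 0, and DESeq2 also called 0 of either list. In Mot1/Med16-AID, where 21.7% of all genes were called higher and 23.1% lower, 4 regulators rose and 3 fell. SPT10, which encodes the UAS-binding activator, rose by 0.70 (SE 0.06, edgeR adjusted p = 2.49e-09), and STB1, whose product binds Swi6 of SBF and MBF, fell by 0.69 (SE 0.11, edgeR adjusted p = 1.11e-05). Of the second list 2 rose and 5 fell there, led by PSH1 (0.30), a ligase for excess Cse4, and NAP1 (-0.41), an H2A-H2B chaperone.

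Of 14 genes for the SWR1 complex and BDF1, none was called in Med16-AID by edgeR or DESeq2, where 6.99% of all genes were called lower. At an unadjusted p under 0.05 there were 2, beside 1481 of 5710 genes. A single gene fell in Med15-AID and in Med15/Med16-AID, where 9.68% and 8.05% of all genes fell, so 1 of 14 is near those shares. That gene was BDF1, which encodes a bromodomain protein that works with TFIID and SWR1, at -0.52 (SE 0.06) and -0.51 (SE 0.06), with edgeR adjusted p = 5.14e-07 and 8.42e-07. It also fell in med16Δ (-0.45, SE 0.08, edgeR adjusted p = 5.24e-04), where SWC5 rose (0.41, SE 0.13), beside 9.53% of all genes lower and 7.97% higher. In Mot1/Med16-AID 2 of the 14 rose and 1 fell, the latter RVB1 (-0.40, SE 0.06), beside 21.7% and 23.1% of all genes.

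Since core histone genes are transcribed in S phase, markers of the cell cycle are given beside them. Of 17 G1/S markers, 4 fell in Med15-AID and 6 in Med15/Med16-AID, where 9.68% and 8.05% of all genes fell, with medians of 0.04 and -0.08. Among those, the G1 cyclin CLN2 changed by -0.69 (SE 0.09) and -0.57 (SE 0.09), and the largest falls were CLN2 in the first and the ribonucleotide reductase gene RNR1 (-0.92, SE 0.08) in the second. Their summed level was 2752 to 2826 CPM with DMSO and 2307 to 2465 CPM with 3-IAA in Med15-AID, and 2738 to 2814 against 2226 to 2267 CPM in Med15/Med16-AID. In med16Δ 2 of the 17 fell and none rose (median 0.04, beside 9.53% of all genes lower), and in Med16-AID 2 fell and 1 rose (median 0.02, beside 6.99% lower). In Mot1/Med16-AID 5 rose and 1 fell (median 0.10, beside 21.7% higher and 23.1% lower). From Med15/Med16-AID to Mot1/Med16-AID the change of 9 of the 17 was more positive by the edgeR test of the difference and that of none more negative (median difference 0.34, beside 14.6% of all genes more positive), in the contrast where all 8 core histone genes were also more positive.

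Most markers of M/G1 fell. Of 10, 9 fell in Med15-AID and 8 in Med15/Med16-AID, with medians of -0.73 and -0.51, and the largest fall was that of DSE2, a daughter-cell wall gene, at -1.77 (SE 0.09) and -1.87 (SE 0.09). DSE2 also fell where the core histone genes did not fall as a group, in med16Δ (-1.84, SE 0.14) and Mot1/Med16-AID (-0.87, SE 0.08), where 7 and 9 of the 10 M/G1 markers were lower, beside 9.53% and 23.1% of all genes. SIC1, the inhibitor of S-phase cyclin kinase, changed by -0.20 (SE 0.06) in Med15-AID and -0.30 (SE 0.06) in Mot1/Med16-AID. Of 10 G2/M markers 3 fell in each of Med15-AID and Med15/Med16-AID, and 8 in Mot1/Med16-AID. None of the 10 was called in Med16-AID by edgeR or DESeq2, at an unadjusted p under 0.05 either, where 3 of 10 M/G1 markers fell. The part of these cell cycle values in the histone gene results was not tested.

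Across the 10 groups the profiles of the core genes lay closer to each other than to those of the variants, for HHT2 by the smallest margin. With each library set centred on its own mean, the Pearson r of a core gene with the mean of the other core genes was 0.839 (HTA1) to 0.982 (HHF2). The r of HTZ1 was 0.259 and that of HHO1 0.453, while HTZ1 and HHO1 had r = 0.927 with each other. HHT2 had r = 0.722 with HTA1, beside 0.708 with HHO1 and 0.578 with HTZ1, whereas with the other 7 core genes HTZ1 had r of 0.0311 to 0.378 and HHO1 of 0.236 to 0.546. These are descriptions over 10 group means, in which groups share strains and library sets. Among the 5066 genes above 20 CPM, the closest to the core profile were TDH1 (r = 0.934) and TDH2 (r = 0.918), which encode glyceraldehyde-3-phosphate dehydrogenase, CAR1 (r = 0.932), which encodes arginase, FET3 (r = 0.920), which encodes an iron oxidase, and ERG9 (r = 0.914), which encodes squalene synthase. In Med15-AID their log2 changes were -1.69 for TDH1, -1.42 for TDH2, -0.96 for CAR1, -0.80 for FET3 and -0.33 for ERG9. In med16Δ, where the core median was 0.01, TDH2 (-0.90), FET3 (-0.55) and CAR1 (-0.40) were called lower by edgeR. TDH1 (-0.31) and ERG9 (-0.15) did not pass the test there. In Mot1/Med16-AID, where the core median was 0.15, CAR1 fell (-0.25, edgeR adjusted p = 0.0119). TDH1 (-0.04), TDH2 (0.10), FET3 (-0.13) and ERG9 (0.12) were not called in that strain.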

How the data were processed

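Nascent RNA labeled with 4tU was sequenced in 30 libraries of 10 groups, taken from the sample labels. The authors mapped paired-end reads to sacCer3 with STAR 2.6.1a and deposited raw counts per gene in 3 columns (unstranded and one per strand), without normalization. The sense column was used. Each library had 3838508 to 6912702 sense counts on genes. Spike-in counts of S. pombe were not used here, whereas the study scaled by them.

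Counts were tested with edgeR 4.0.16 (filterByExpr, TMM factors, quasi-likelihood test, groups as the only factor, R 4.3.3), with one fit per library set and a fit of all 30 for differences across sets. P-values were adjusted over all genes tested by the Benjamini-Hochberg method, with 0.05 as the threshold. Replicate libraries differed by more than sampling noise in each group. They are called biological replicates by the study. CPM values carry TMM factors of all 30 libraries.

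All 10 members were described. Of other genes, those named were the largest called rise or fall of a list in a comparison, CLN2, SIC1 and CSE4. The 5 genes closest to the core profile were named too. MED16 was given as a check of the deletion. MED15 and MOT1 were named as targets of degrons, whose transcripts do not check the depletions. Lists were counted in full. The UAS letters GNGAANNNNNNNGAAC were added after the shorter form had been searched. Members and lists were chosen with earlier results of these data known. Sequences and coordinates came from RefSeq R64, read with Biopython 1.88, and promoter windows were 500 bases. The alternatives were median-of-ratios factors, library totals only, the DESeq2 1.42.0 Wald test, no filter, at least 10 counts in every library, only the groups compared, all 30 libraries in one fit, a block for replicate number, unstranded counts, and each library left out in turn.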

Additional observations from a re-analysis of the deposited data

Results flagged for a closer look

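Several histone genes responded differently in different strains, by a test of the difference of log2 fold changes in edgeR. Between Mot1/Med16-AID and Med15/Med16-AID the difference was 0.65 for HTA1, 0.75 for HTB1, 1.22 for HTA2, 1.14 for HTB2, 0.90 for HHT1, 1.27 for HHF1, 0.79 for HHT2 and 1.11 for HHF2. Between Med15-AID and Med16-AID it was -0.45 for HTB1, -0.79 for HTB2, -0.65 for HHT1, -0.86 for HHF1, -0.68 for HHT2 and -0.66 for HHF2. The call of HTB1 in that comparison was lost in 11 of 20 alternatives. Between Med15/Med16-AID and Med16-AID it was -0.58 for HTB1, -0.82 for HTA2, -0.97 for HTB2, -0.81 for HHT1, -1.09 for HHF1, -0.70 for HHT2 and -0.89 for HHF2. The call of HTA2 there was lost without Med16-AID 3-IAA replicate 1 or DMSO replicate 3, or Med15/Med16-AID 3-IAA replicate 2 or 3. Between Mot1/Med16-AID and Med16-AID it was 0.44 for HTA1 and -0.47 for HTZ1.

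Counts on the strand opposite to the genes, which the comparisons above used only as part of the unstranded alternative, gave 1 call at each variant gene in 5 comparisons. In Med15-AID, where 0.601% of 3161 genes had an antisense rise, antisense counts at HTZ1 were 38 to 45 per DMSO library and 62 to 79 per 3-IAA library, a log2 change of 0.61 (SE 0.18, edgeR adjusted p = 0.0317). In Med15/Med16-AID, where HTZ1 also fell, they were 43 to 55 against 48 to 109, a change of 0.18 (SE 0.17, edgeR adjusted p = 0.638). In Mot1/Med16-AID, where 7.88% of the 3161 rose, antisense counts at HHO1 were 27 to 35 per library with DMSO and 52 to 60 with 3-IAA, a change of 0.61 (SE 0.20, edgeR adjusted p = 0.0214). No other antisense call was made at the members tested. HTB1, HTA2, HHT1, HHF1 and HHF2 had too few antisense counts to be tested in any of the 5 comparisons. HTB2 was likewise not tested in the second library set.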

How the results depend on the processing

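No call of a member changed direction in any alternative. The 9 members called in Med15-AID and the 10 in Med15/Med16-AID stayed at 9 to 10 and 10 under each alternative, and the 8 differences between Mot1/Med16-AID and Med15/Med16-AID at 8 to 9. Other counts of members called moved by over 1.5 times. With library totals only they were 2 (from 4) in med16Δ, 0 (from 1) in Med16-AID and 1 (from 2) between the DMSO groups of Med15/Med16-AID and Med15-AID, the last also 1 with the unstranded column and 1 with all libraries in one fit. In that one fit they were 2 in Med16-AID, 3 (from 6) in Mot1/Med16-AID and 1 (from 3) between the DMSO groups of Mot1/Med16-AID and Med15/Med16-AID. Leaving out each library gave 1 to 4 in med16Δ, 0 to 1 in Med16-AID, 1 to 2 and 1 to 3 for those 2 DMSO contrasts, and 1 to 3 for Mot1/Med16-AID against Med16-AID. The cause was not tested.

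Library totals shifted the median of all genes to 0.20 in Med15-AID, 0.16 in Med15/Med16-AID, 0.19 in med16Δ and 0.12 in Med16-AID, and the core median to -0.58 in Med15-AID and -0.82 in Med15/Med16-AID. All genes called went from 232 higher and 562 lower to 2897 and 336 in Med15-AID, from 232 and 467 to 2111 and 345 in Med15/Med16-AID, from 455 and 544 to 1676 and 342 in med16Δ, from 233 and 399 to 830 and 192 in Med16-AID, and from 1259 and 1340 to 1667 and 946 in Mot1/Med16-AID. The count of all genes called in Med16-AID, 632, was 283 to 690 with one library left out (lower by over 1.5 times without 3-IAA replicate 1 or DMSO replicate 2) and 1150 with all libraries in one fit, and that of med16Δ against Med16-AID, 381, was 250 to 542 and 789.

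Replicate numbers are shared between groups without a stated pairing. Same-numbered libraries correlated at -0.34 to 0.294 in their deviations, and in Med15-AID, at 0.0602 to 0.119, all 6 libraries correlated best with their own number. With the replicate block the members called were 4 in med16Δ, 1 in Med16-AID, 9 in Med15-AID, 10 in Med15/Med16-AID, 6 in Mot1/Med16-AID and 7 (from 8) in Med16-AID with DMSO against WT. In Med15-AID the SEs of HTZ1 (0.07) and HHO1 (0.08), the members with fewest counts, were below that of HTA2 (0.10).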
